A study of Arabidopsis thaliana with 24 samples.

Results

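Hybrid embryos of 32 cells were set against embryos of 2 cells in Arabidopsis thaliana, in both lineages that descend from the first division of the zygote. All 24 of the 24 libraries enter this comparison, 12 of each stage. Genes were taken as moving the same way when both lineages and their average gave a call with the same sign, which held for 1261 of the 18206 genes tested.

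At 32 cells the samples are the embryo proper, the source of nearly the whole seedling, and the suspensor, a file of cells that anchors and nourishes it. At 2 cells they are the apical cell, from which the embryo proper arises, and the basal cell, from which the suspensor arises. Every embryo was a cross of Col and Ler, with either Col or Ler as the mother, from plants grown in a greenhouse under long days. Each of the 8 combinations of cell type and mother has 3 libraries, which the series text calls independent biological replicates, so each cell type has 6. The labels' 2 cells are used here, although the design text of the series speaks of 1 cell. How the cells were isolated, and how many went into a library, are not given in the sources used here.

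Between these stages the embryo becomes a ball of cells with an outer layer, the protoderm, which makes the cuticle. Auxin drives the first patterning steps through ARF transcription factors and the Aux/IAA proteins that hold them back. An embryo just after fertilization also holds RNA delivered by the gametes, and that pool is replaced by transcription from the new genome. The values do not separate inherited RNA from RNA made in the embryo.

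Expression is given as FPKM, fragments scaled to transcript length and to the library's mapped fragments, and was compared as log2(FPKM + 1). Differences on this scale are written log2 and understate the change of genes with low values. In bulk RNA, fewer cells of a type and less RNA per cell cannot be told apart. A library held 12611 to 15366 loci at an FPKM of at least 1, and the number of fragments behind it is unknown. Suspensor libraries were the most uneven. The leading 10 loci made up 16.1 to 26.3% of the summed FPKM in the suspensor, against 4.32 to 6.73% in the other cell types.

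Of 4 genes known to mark the lineages, DRN and WOX8 separated the labelled cells at both stages and WOX2 and WOX9 did so less cleanly. DRN, a regulator of the apical lineage, had medians of 38.7 FPKM in the embryo proper and 0 in the suspensor, against 56.6 in the apical cell and 2.13 in the basal cell. WOX8, a homeobox gene of the basal lineage, had medians of 0.415 FPKM in the embryo proper and 363 in the suspensor, against 34.8 in the apical cell and 238 in the basal cell. WOX2, of the apical lineage, had medians of 84.8 FPKM in the embryo proper and 1.53 in the suspensor, against 151 in the apical cell and 90.2 in the basal cell, and its apical cell (83.2 to 277 FPKM) and basal cell (59.6 to 127 FPKM) libraries overlapped. WOX9, of the basal lineage, had medians of 112 FPKM in the embryo proper and 217 in the suspensor, against 10 in the apical cell and 342 in the basal cell, with embryo proper (74.9 to 119 FPKM) and suspensor (111 to 338 FPKM) libraries overlapping. Of 17 endosperm markers, 12 were under an FPKM of 1 in all embryo proper libraries and 9 in all suspensor libraries, against 12 in the apical cell and 11 in the basal cell. Their summed FPKM was 2.66 to 20 in the embryo proper and 102 to 275 in the suspensor, against 6.88 to 42.6 in the apical cell and 64.9 to 422 in the basal cell. Most of the sum in the suspensor and the basal cell was SUC5, a sucrose carrier, while PHE1, YUC10, RGE1, AGL61 and AT1G10747 were listed at 0 in all 24 libraries. AGL62, AGL80 and AT1G10745 were highest in the suspensor. AGL62, an endosperm regulator, averaged 0.598 FPKM in the embryo proper and 11.4 in the suspensor, against 0.247 in the apical cell and 5.88 in the basal cell, AT1G10745 averaged 3.98 FPKM in the embryo proper and 24.9 in the suspensor, against 0 in the apical cell and 9.42 in the basal cell, and AGL80 averaged 1.39 FPKM in the embryo proper and 5.37 in the suspensor, against 0.792 in the apical cell and 0.973 in the basal cell. Of 8 tested endosperm markers, 2 rose and 1 fell in the average, against 17.2 and 24.5% of all tested genes. The part of these markers in the results was not tested.

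Averaged over lineages and crosses, 3136 genes were higher and 4457 lower at 32 cells by limma's moderated test (adjusted p below 0.05 by Benjamini-Hochberg over all tested genes), 17.2 and 24.5% of genes. As fitted, with 1 spread per gene for all cell types, most of these calls came from 1 lineage. Of the 7593 genes (41.7%), 4220 were called in the basal lineage and not in the apical, 1391 in the apical and not in the basal, 272 in opposite directions and 449 in neither lineage alone. The 1261 shared genes were 6.93% of all tested genes. They made up 31.7% of the 3984 genes called in the apical lineage and 15.4% of the 8173 called in the basal lineage, where 21.9 and 44.9% of tested genes were called. In the apical lineage 10.2% of tested genes rose and 11.7% fell, and in the basal lineage 18.9% rose and 26.0% fell. The gap between lineages depended on the fit. With library weights 6873 genes were called in the apical and 7345 in the basal lineage, and 1875 were shared.

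Among the shared genes 552 rose and 709 fell (3.03 and 3.89% of genes tested). Which direction held more genes depended on the scaling. Median-ratio scaling gave 685 risen and 539 fallen, quantile normalization 690 and 631. The median difference over all tested genes was -0.14 log2 as fitted and -0.03 log2 with median-ratio scaling. Among shared genes it was 2.19 log2 for those that rose and -1.84 log2 for those that fell. In 454 of the risen and 526 of the fallen genes the size was at least 1 log2 in each lineage. Just inside the threshold lay AT1G25550, with an adjusted p by limma of 0.0496 in the apical lineage, and just outside lay AT1G01630, with 0.0501 in the basal lineage.

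**Figure D1:**
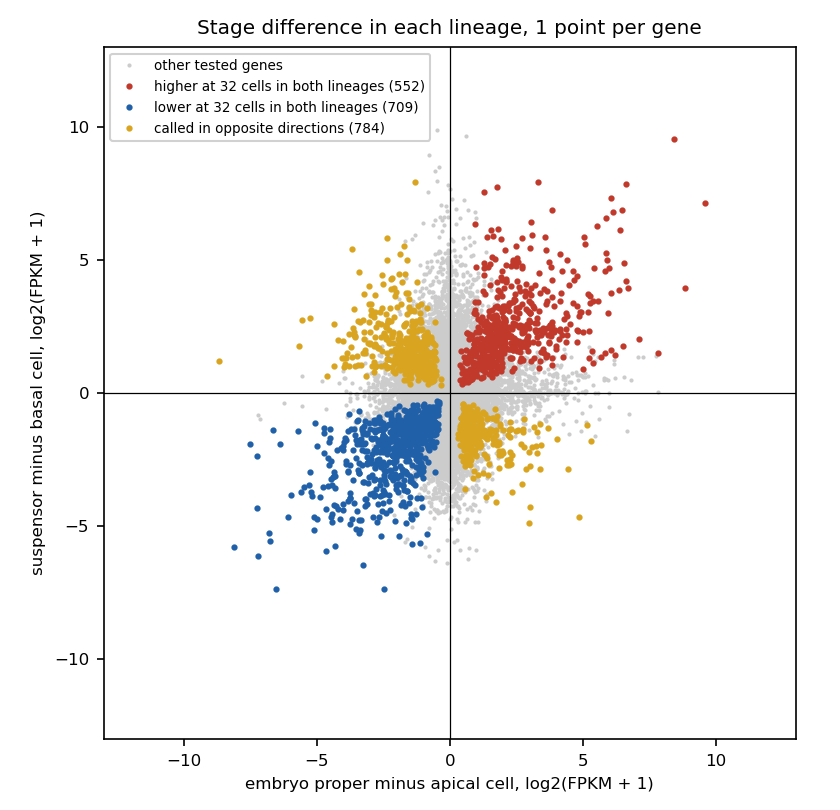
Stage difference of each tested gene in the apical lineage (horizontal axis, embryo proper minus apical cell) and the basal lineage (vertical axis, suspensor minus basal cell), in log2(FPKM + 1). Colours mark the 552 genes called higher and the 709 called lower at 32 cells in both lineages, and the 784 called in opposite directions.

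Of the 2045 genes called in both lineages, 61.7% moved the same way and 784, 4.31% of tested genes, moved in opposite directions. Of these, 315 (1.73%) were higher in the embryo proper and lower in the suspensor, and 469 (2.58%) the reverse. A shared direction did not mean a shared size. The lineages differed by a called amount for 310 shared genes, 24.6% of them, against 35.5% of all tested genes. Shared genes were chosen for the same sign in both lineages, so a lower share follows in part from that choice. The crosses differed by a called amount for 43 shared genes, 3.41% against 1.49% of all tested genes. The second share rests on single libraries, since the count of 272 genes behind it was 116 without replicate 2 of the embryo proper with a Ler mother and 777 without replicate 3 of the suspensor with a Ler mother. Within each cross alone, the stage difference had 1 sign for 551 of the risen and 707 of the fallen genes. It was called in both crosses for 473 and 608. Over all tested genes it was called for 5233 with a Col mother and 5397 with a Ler mother. The shared genes were chosen over the libraries of both crosses, so this agreement follows in part from that choice. Library kit wording differed for 4 libraries, all of the basal lineage. With the kit wording as a covariate, 554 genes rose and 697 fell in both lineages. The 4 libraries include replicates 2 and 3 of the basal cell with a Ler mother, so a fit without them rests on 1 library there.

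Some shared genes were near absent at the other stage. Of those that rose, 63 were under an FPKM of 1 in all 12 libraries of 2 cells, and 15 were listed at 0 there. Of those that fell, 72 were under 1 in all 12 libraries of 32 cells, and 6 were listed at 0. In 104 risen and 126 fallen genes the 12 libraries of 32 cells did not overlap the 12 of 2 cells, where 107 and 140 of all tested genes were so apart (0.588 and 0.769%). Genes known only by a locus code made up 50% of the risen, 64.2% of the fallen and 58.2% of all tested genes.

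AT1G71691 and PDF1, listed here under epidermis and cuticle genes, were among the leading risen genes. The annotation of AT1G71691 names a lipase family and no tissue. The leading genes are the 12 in each direction with the largest change in the lineage where it was smaller, among abundant shared genes whose stages did not overlap, so their sizes are a description. AT1G71691, a GDSL-type lipase gene (chr1:26948743-26951547, minus strand), had 312, 493 and 889.6 FPKM (lowest, median and highest) in the embryo proper and 285, 921 and 1187 FPKM in the suspensor, against 0, 0.17 and 4.84 FPKM in the apical cell and 0 in all 6 libraries in the basal cell. Its difference was 8.43 ± 0.37 log2 in the apical and 9.56 ± 0.37 log2 in the basal lineage (SE throughout), the largest average of all shared genes. Its exons overlap those of AT1G71690, which averaged 0.567 FPKM in the embryo proper and 5.83 in the suspensor, against 0.593 in the apical cell and 0 in the basal cell.

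PDF1 encodes a cell wall protein of the outermost cell layer (chr2:17826071-17827648, minus strand). It had 3729, 4892 and 5199 FPKM in the embryo proper and 479, 1155 and 2159 FPKM in the suspensor, against 1.34, 3.88 and 15.4 FPKM in the apical cell and 0, 7.68 and 30.7 FPKM in the basal cell. The stages were far apart in both lineages, and the embryo proper stood highest. Its rise was 9.59 ± 0.56 log2 in the apical and 7.16 ± 0.56 log2 in the basal lineage, a difference between lineages that was called (limma adjusted p = 0.019).

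MYB94, a transcription factor that switches on wax synthesis, had 41.2, 72.8 and 87 FPKM in the embryo proper and 66.2, 90.7 and 163 FPKM in the suspensor, against 0, 0.07 and 0.46 FPKM in the apical cell and 0 in all 6 libraries in the basal cell. KCS10, also called FIDDLEHEAD, a fatty acid elongase, had 84, 112 and 199 FPKM in the embryo proper and 72.3, 105 and 129.7 FPKM in the suspensor, against 0.71, 16 and 41.1 FPKM in the apical cell and 0, 3.69 and 25.4 FPKM in the basal cell. Neither gene overlapped between stages, and KCS10 was above 0 in all 6 apical cell libraries. LTPG1, a lipid transfer protein anchored at the cell surface, had 392.2, 647 and 1041 FPKM in the embryo proper and 10.8, 63 and 208 FPKM in the suspensor, against 0, 0.305 and 2.19 FPKM in the apical cell and 0, 3.19 and 26.5 FPKM in the basal cell. It overlapped between the suspensor and the basal cell, and its rise was larger in the apical lineage (8.82 ± 0.68 log2 in the apical and 3.95 ± 0.68 log2 in the basal lineage, adjusted p of the difference 0.00037 by limma).

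Of 19 tested epidermis and cuticle genes, 14 rose and 0 fell in the average, against 17.2 and 24.5% of all tested genes. In both lineages 7 rose, 36.8% of the list against 3.03% of all genes. Beside AT1G71691, PDF1, KCS10 and LTPG1 these were LTPG2, CYP86A2, a hydroxylase of cutin synthesis, and PDF2, a homeodomain regulator of the outer layer. The median over the list was 1.51 log2, with 2.62 in the apical and 0.77 in the basal lineage. The lists were drawn up with results of these data known, so these shares are no independent support.

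The bases upstream of 3 risen genes are shown because each holds TAAATGCA or TAAATGTA, the letters of the L1 box, the element to which PDF2 and its relatives bind. Each run is the 250 bases before the RefSeq start on TAIR10.1, 5′ to 3′ on the gene's strand, with the match on either strand in capitals.
AT1G71691 (chr1:26951548-26951797, minus strand): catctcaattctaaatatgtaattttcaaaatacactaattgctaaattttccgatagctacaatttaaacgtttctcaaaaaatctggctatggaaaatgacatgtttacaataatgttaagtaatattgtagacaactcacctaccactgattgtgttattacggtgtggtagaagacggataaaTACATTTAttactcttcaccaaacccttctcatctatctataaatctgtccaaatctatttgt
MYB94 (chr3:17541308-17541557, minus strand): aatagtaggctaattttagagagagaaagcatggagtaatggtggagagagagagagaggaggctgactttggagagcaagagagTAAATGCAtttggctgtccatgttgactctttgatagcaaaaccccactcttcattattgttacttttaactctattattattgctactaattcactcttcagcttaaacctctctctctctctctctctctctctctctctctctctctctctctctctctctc
KCS10 (chr2:11173279-11173528, minus strand): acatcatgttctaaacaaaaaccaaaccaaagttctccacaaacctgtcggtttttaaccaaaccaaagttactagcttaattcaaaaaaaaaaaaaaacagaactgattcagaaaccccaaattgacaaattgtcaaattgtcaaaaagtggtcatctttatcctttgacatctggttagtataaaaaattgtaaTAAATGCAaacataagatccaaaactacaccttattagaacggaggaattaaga
The first base of the match lies 63 bases before the start in AT1G71691, 165 in MYB94 and 54 in KCS10. The search on both strands used TAAATGNA, which also takes A or G at the seventh base and so is wider than the L1 box. These letters occurred in 13.2% of the windows of risen shared genes, 11.7% of fallen ones and 9.81% of all tested genes. The windows of PDF1, LTPG1 and PDF2 held no match. Letters of the L1 box itself also stood before the fallen genes AT3G14250, VIM2 and ARR15. They stood before the risen genes AT3G05600, BCCP2, RBCS1A and SWEET5 as well, so the windows shown do not set surface genes apart.

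**Figure D2:**
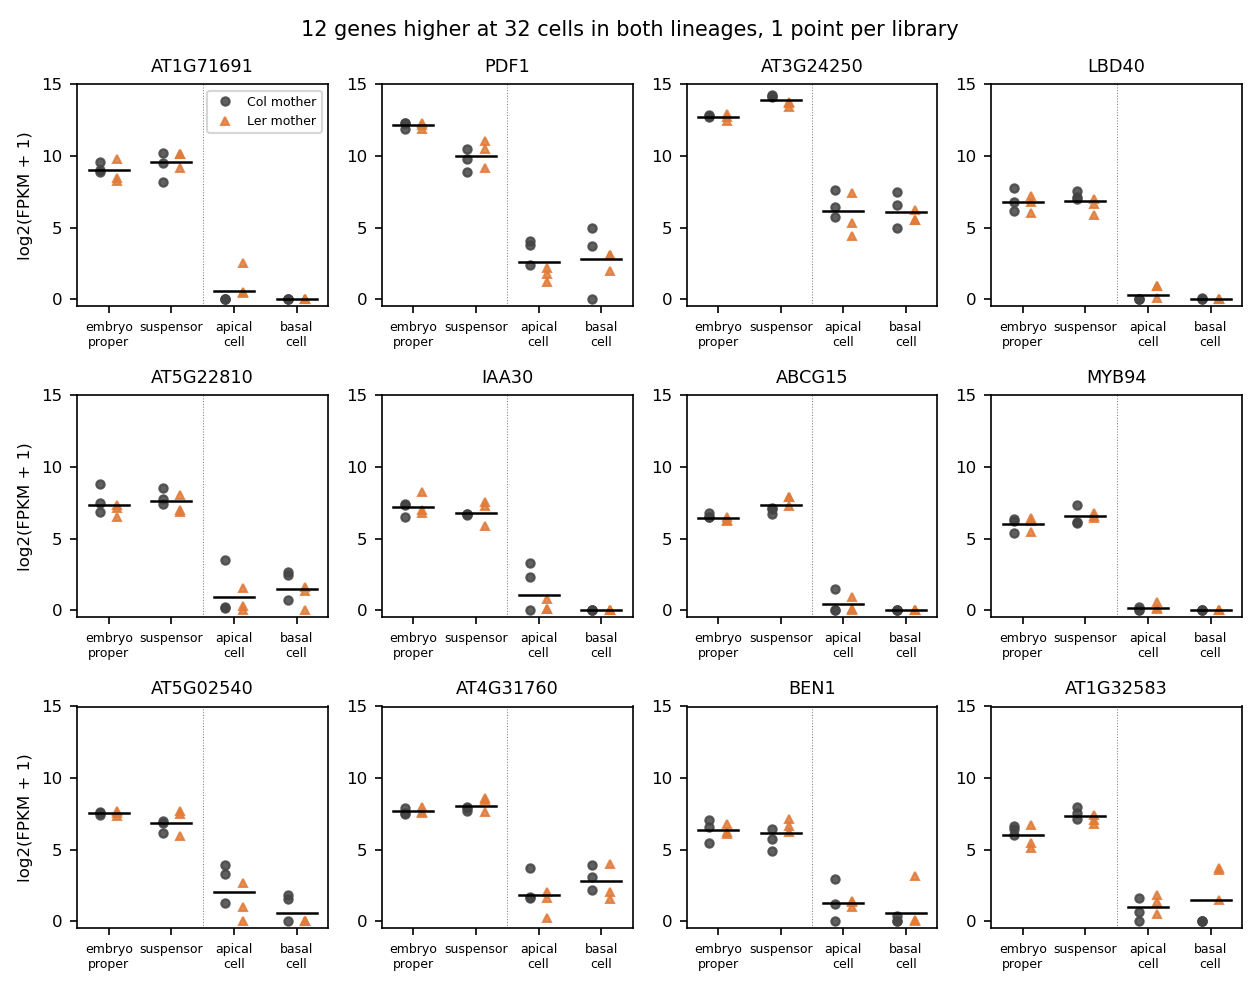
Level of the 12 leading risen genes in each library, as log2(FPKM + 1), by cell type and mother, with cells of 32-cell embryos on the left and cells of 2-cell embryos on the right. In each panel the points on the left lie above those on the right.

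AT3G24250, a glycine-rich protein gene, was the most abundant leading gene, with 5690.3, 7035 and 7754 FPKM in the embryo proper and 10969, 15852 and 19272 FPKM in the suspensor, against 19.9, 69.4 and 192 FPKM in the apical cell and 31, 60.3 and 181 FPKM in the basal cell. It was measurable in every library of the earlier stage and still did not overlap. LBD40, a LOB-domain transcription factor, had 65.2, 110.0 and 214 FPKM in the embryo proper and 58.6, 128 and 191 FPKM in the suspensor, against 0, 0.025 and 0.91 FPKM in the apical cell and 0, 0 and 0.06 FPKM in the basal cell, and its difference was 6.48 ± 0.31 log2 in the apical and 6.87 ± 0.31 log2 in the basal lineage. ABCG15, an ABC transporter, had medians of 89.9 FPKM in the embryo proper and 144 in the suspensor, against 0.03 in the apical cell and 0 in the basal cell. Its rise was larger in the basal lineage, by 1.28 ± 0.41 log2 (limma adjusted p = 0.017).

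BEN1, a reductase that lowers brassinosteroid levels, had medians of 84.8 FPKM in the embryo proper and 81 in the suspensor, against 1.39 in the apical cell and 0.04 in the basal cell. The peroxidase gene AT4G31760 had medians of 192 FPKM in the embryo proper and 248 in the suspensor, against 2.21 in the apical cell and 5.50 in the basal cell. The second GDSL-type lipase gene, AT5G22810, had medians of 149.6 FPKM in the embryo proper and 191 in the suspensor, against 0.185 in the apical cell and 1.76 in the basal cell. No difference between the lineages was called for these 3. The exons of AT5G22810 overlap those of AT5G22820, which averaged 8.20 FPKM in the embryo proper and 3.15 in the suspensor, against 11.4 in the apical cell and 5.96 in the basal cell. AT5G02540, annotated as a dehydrogenase-fold protein, had medians of 189 FPKM in the embryo proper and 119.5 in the suspensor, against 3.40 in the apical cell and 0.015 in the basal cell.

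AT1G32583, annotated as a tapetum determinant protein, had medians of 74.3 FPKM in the embryo proper and 154 in the suspensor, against 1.04 in the apical cell and 0.89 in the basal cell. Its exons overlap those of another locus, AT1G06597, for which no value was used. It was the 1 leading gene whose rise differed between crosses, larger with a Col mother by 2.23 log2 (limma adjusted p = 0.043). All 12 leading risen genes were called within each cross, with differences of 5.04 to 9.23 log2 with a Col mother and 4.34 to 8.95 log2 with a Ler mother. Their selection for non-overlap over the same libraries makes these calls no independent support.

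Some genes of auxin response rose in both lineages. IAA30, an Aux/IAA repressor, had 90.2, 143 and 309 FPKM in the embryo proper and 59, 102 and 192 FPKM in the suspensor, against 0, 0.375 and 8.82 FPKM in the apical cell and 0 in all 6 libraries in the basal cell. Its stages did not overlap, and its difference was 6.13 ± 0.43 log2 in the apical and 6.80 ± 0.43 log2 in the basal lineage. IAA1, of the same family, had medians of 84 FPKM in the embryo proper and 10.8 in the suspensor, against 0 in the apical cell and 0 in the basal cell. MONOPTEROS (MP), the ARF activator of embryo patterning, had 100.2, 134 and 151 FPKM in the embryo proper and 28.9, 37.5 and 63.6 FPKM in the suspensor, against 2.12, 5.74 and 9.88 FPKM in the apical cell and 1.80, 3.61 and 10.06 FPKM in the basal cell. MP was low but present in every library of the earlier stage and rose more in the apical lineage (4.38 ± 0.36 log2 in the apical and 3.01 ± 0.36 log2 in the basal lineage, limma adjusted p of the difference 0.037).

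Of 57 tested auxin genes, 33 rose and 6 fell in the average, against 17.2 and 24.5% of all tested genes, with a median of 0.91 log2. In both lineages 6 rose (10.5%, against 3.03%). They were the repressors IAA1, IAA8, IAA19 and IAA30 and the response factors MP and ARF8. On either strand TGTCTC, the auxin response element, was in 11.6% of the windows of risen shared genes, 9.75% of fallen ones and 10.6% of all tested genes.

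Embryo patterning regulators rose mainly in the apical lineage. Of 28 tested, 21 rose and 1 fell in the apical lineage and 6 rose and 7 fell in the basal lineage, with medians of 2.45 and 0.00 log2. Over all tested genes 10.2% rose and 11.7% fell in the apical lineage, and 18.9% rose and 26.0% fell in the basal. Patterning regulators that rose in both were MP, PDF2, PLT1, PLT3 and KAN2, 17.9% of the list against 3.03% of all tested genes. PLT1, a regulator of root stem cells, had 88.4, 106 and 123 FPKM in the embryo proper and 26.6, 59.2 and 72.4 FPKM in the suspensor, against 0, 1.08 and 12.4 FPKM in the apical cell and 7.76, 18.6 and 34.2 FPKM in the basal cell. It overlapped between suspensor and basal cell, and its rise was 5.33 ± 0.36 log2 in the apical and 1.57 ± 0.36 log2 in the basal lineage (adjusted p of the difference 4.5e-06 by limma). PDF2 had medians of 87.7 FPKM in the embryo proper and 63.1 in the suspensor, against 2.46 in the apical cell and 11.9 in the basal cell, without overlap. KAN2, a polarity regulator, reached 10.06 FPKM at most in the embryo proper and 4.95 in the suspensor and was listed at 0 in all 12 libraries of 2 cells.

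Of 9 embryo identity and maturation regulators, 6 rose and 2 fell in the average, against 17.2 and 24.5% of all tested genes. FUS3, a master regulator of seed maturation, was the 1 shared gene among them (11.1%, against 3.03% of all tested genes). It had 4.59, 8.04 and 14 FPKM in the embryo proper and 168, 228 and 429 FPKM in the suspensor, against 0, 0.07 and 1.48 FPKM in the apical cell and 0, 5.36 and 13.2 FPKM in the basal cell. Every suspensor library lay above every embryo proper library, and the rise of FUS3 was larger in the basal lineage by 3.11 ± 0.57 log2 (limma adjusted p = 0.00017).

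Part of the genes of photosynthesis, fatty acid synthesis and wall growth rose as well. Of 45 tested nuclear photosynthesis genes, 22 rose and 1 fell in the average, against 17.2 and 24.5% of all tested genes. In both lineages 6 rose (13.3%, against 3.03%), namely PSBX, PSBW, PSBR, LHCA1, PETC and RBCS1A. PSBX, a photosystem II subunit, had 12.7, 23.5 and 62.8 FPKM in the embryo proper and 63, 93.8 and 135 FPKM in the suspensor, against 0.09, 3.15 and 6.47 FPKM in the apical cell and 11.5, 22.4 and 41.4 FPKM in the basal cell, apart in both lineages. PSBW, another subunit, had medians of 12.5 FPKM in the embryo proper and 39.6 in the suspensor, against 0.77 in the apical cell and 1.42 in the basal cell. It overlapped between the embryo proper and the apical cell. The call of PSBR was lost in 22 of 36 alternative fits, and RBCS1A, the small subunit of Rubisco, overlapped between stages in both lineages.

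Of 24 fatty acid synthesis genes 13 rose and 1 fell in the average, against 17.2 and 24.5% of all tested genes. In both lineages 2 rose (8.33%, against 3.03%). BCCP2, a subunit of acetyl-CoA carboxylase, had 15.8, 24.3 and 43.9 FPKM in the embryo proper and 124, 157 and 206 FPKM in the suspensor, against 4.19, 6.0 and 6.92 FPKM in the apical cell and 0.19, 1.14 and 8.90 FPKM in the basal cell. The suspensor stood highest, and the rise was 1.92 ± 0.45 log2 in the apical and 5.80 ± 0.45 log2 in the basal lineage. PDH-E1-beta, the other, lost its call in 12 of 36 alternative fits. Of 29 cell wall expansion genes 16 rose and 3 fell in the average, against the same 17.2 and 24.5%. In both lineages 4 rose (13.8%, against 3.03%). EXPA6, an expansin that loosens the wall, had medians of 52.5 FPKM in the embryo proper and 12.3 in the suspensor, against 0.59 in the apical cell and 0.015 in the basal cell. XTH19, which cuts and rejoins xyloglucan, had medians of 28 FPKM in the embryo proper and 26.2 in the suspensor, against 4.43 in the apical cell and 1.30 in the basal cell. EXPA6 overlapped between the suspensor and the basal cell, and XTH19 overlapped between stages in both lineages. EXPA10 and EXPA21 were the others. EXPA10 reached at most 10.9 FPKM in the embryo proper and 8.43 in the suspensor, against 0 in the apical cell and 0.18 in the basal cell. Its suspensor libraries had 0.48 to 8.43 FPKM with a Ler mother and 0 to 1.26 FPKM with a Col mother. They overlapped those of the basal cell. EXPA21 reached 4.52 FPKM in the embryo proper and had 17.4, 24.1 and 47.7 FPKM in the suspensor with a Col mother and 0, 0.1 and 4.43 FPKM in the suspensor with a Ler mother, against at most 1.01 FPKM in the apical cell and 1.72 in the basal cell. Its suspensor values were thus split by cross.

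**Figure D3:**
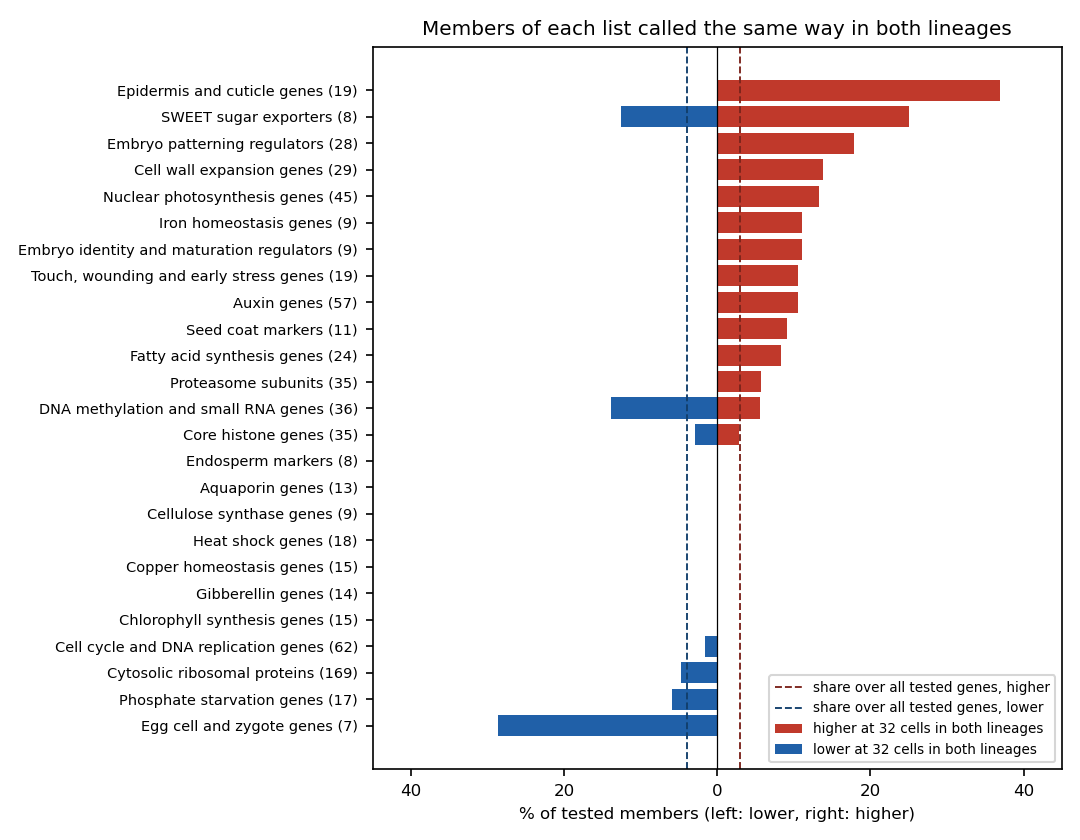
Share of each list's tested members that were called higher or lower at 32 cells in both lineages. Dashed lines mark the shares over all tested genes, 3.03% higher and 3.89% lower, and the list of 2 tested cell death genes is not drawn.

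The leading fallen genes included paralogues of genes for translation and for the vacuole. AT5G09500, annotated to the ribosomal protein S19 family (chr5:2953884-2954918, minus strand), had 1.95, 3.93 and 18.1 FPKM (lowest, median and highest) in the embryo proper and 0, 1.51 and 7.98 FPKM in the suspensor, against 313, 506 and 779 FPKM in the apical cell and 267, 466 and 642 FPKM in the basal cell. Its difference was -6.52 ± 0.34 log2 in the apical and -7.38 ± 0.34 log2 in the basal lineage, the largest average fall of all shared genes. Ribosomal protein genes have near-identical copies between which reads can be split, so its level is uncertain. eIF6B, a paralogue of a factor of ribosome assembly, had medians of 2.46 FPKM in the embryo proper and 1.93 in the suspensor, against 99.2 in the apical cell and 73 in the basal cell, and its exons overlap those of AT2G39830, which averaged under 1 FPKM in each cell type. VHA-E3, one of the E subunits of the vacuolar proton pump, had medians of 1.05 FPKM in the embryo proper and 0.435 in the suspensor, against 84.2 in the apical cell and 67.2 in the basal cell. VHA-E3 changed by nearly the same amount in both lineages, -5.10 ± 0.46 log2 in the apical and -5.13 ± 0.46 log2 in the basal lineage.

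AT5G45280, a pectin acetylesterase gene (chr5:18345534-18349695, plus strand), had 0.61, 3.27 and 4.14 FPKM in the embryo proper and 0, 1.78 and 31.5 FPKM in the suspensor, against 325, 521 and 667 FPKM in the apical cell and 132, 266 and 482 FPKM in the basal cell. AT5G48510, a BTB/POZ domain protein gene, had 4.0, 5.58 and 10.5 FPKM in the embryo proper and 0, 22.2 and 39.7 FPKM in the suspensor, against 645, 704 and 987 FPKM in the apical cell and 300.3, 484 and 542 FPKM in the basal cell. AT3G14250, a RING/U-box protein gene, had 0, 0 and 0.66 FPKM in the embryo proper and 0, 0 and 13.7 FPKM in the suspensor, against 84.8, 128 and 146 FPKM in the apical cell and 36.4, 84.6 and 122 FPKM in the basal cell. None of these overlapped between stages, although 1 suspensor library stood above the others for AT5G45280 and AT3G14250.

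AT4G26485, annotated with a methyltransferase domain, had 0, 0.805 and 3.07 FPKM in the embryo proper and 0, 0.08 and 2.38 FPKM in the suspensor, against 356, 497 and 776 FPKM in the apical cell and 31.1, 82.4 and 133 FPKM in the basal cell. AT5G53670, an uncharacterized protein gene, had 0.81, 1.61 and 2.86 FPKM in the embryo proper and 0, 0 and 1.30 FPKM in the suspensor, against 129, 174 and 238 FPKM in the apical cell and 15, 32.7 and 49.5 FPKM in the basal cell. Both were higher in the apical cell than in the basal cell and near 0 in the cells of the later stage. The lineages differed by 2.32 ± 0.55 log2 for AT4G26485 and 1.40 ± 0.46 log2 for AT5G53670 (limma adjusted p = 0.002 and 0.021). AT2G36540, a hydrolase gene, had medians of 16.9 FPKM in the embryo proper and 23.4 in the suspensor, against 569.8 in the apical cell and 457 in the basal cell. AT1G71470, an uncharacterized protein gene, had medians of 49.8 FPKM in the embryo proper and 7.36 in the suspensor, against 957 in the apical cell and 173 in the basal cell. Neither overlapped between stages. AT3G54310, annotated as an RNA polymerase subunit, had medians of 5.97 FPKM in the embryo proper and 0.02 in the suspensor, against 199.8 in the apical cell and 80.3 in the basal cell. AT1G77145, a putative transmembrane protein gene, had medians of 2.12 FPKM in the embryo proper and 0 in the suspensor, against 58 in the apical cell and 41.8 in the basal cell. All 12 were called within each cross, with differences of -6.89 to -4.18 log2 with a Col mother and -7.24 to -4.11 log2 with a Ler mother. These calls too follow from the selection over the same libraries.

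The window before AT5G53670 is shown because it holds AACCCTA, the telo box found upstream of many genes of translation, in capitals.
AT5G53670 (chr5:21796747-21796996, plus strand): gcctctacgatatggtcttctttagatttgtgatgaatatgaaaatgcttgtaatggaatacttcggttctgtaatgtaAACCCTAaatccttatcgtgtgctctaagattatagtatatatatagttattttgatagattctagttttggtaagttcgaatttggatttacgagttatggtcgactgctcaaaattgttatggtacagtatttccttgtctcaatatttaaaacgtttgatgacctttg
On either strand AACCCTA was in 3.27% of the windows of risen shared genes, 11% of fallen ones and 6.14% of all tested genes. TGGGCC, the core of TCP factor sites, was in 10.9% of risen, 18.1% of fallen and 18.2% of all tested windows. TTGAC, the W box of WRKY factors, was in 51.7% of risen, 45.5% of fallen and 44.9% of all. These shares describe letters and carry no test.

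**Figure D4:**
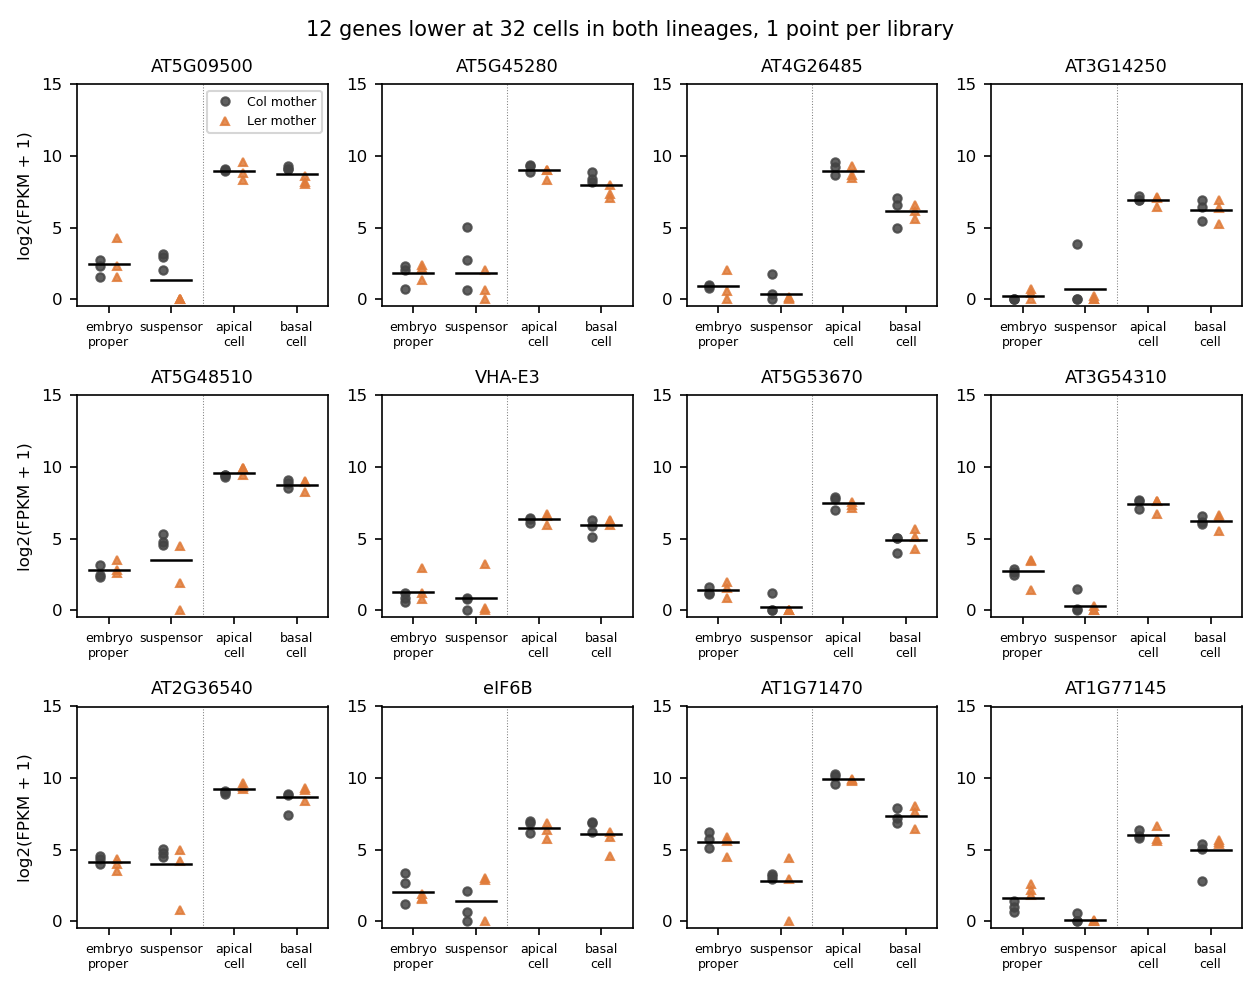
Level of the 12 leading fallen genes in each library, as log2(FPKM + 1), by cell type and mother, with cells of 32-cell embryos on the left and cells of 2-cell embryos on the right. In each panel the points on the left lie below those on the right.

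The ribosome as a whole followed another pattern than AT5G09500. Of 169 tested genes for cytosolic ribosomal proteins, 2 rose and 135 fell in the average, yet 8 fell in both lineages (4.73%, against 3.89% of all genes). In the apical lineage 89 rose and 8 fell, and in the basal lineage 1 rose and 164 fell, with medians of 0.43 and -1.66 log2. Over all tested genes 17.2% rose and 24.5% fell in the average, 10.2% rose in the apical lineage and 26.0% fell in the basal lineage. Thus 89 were called in opposite directions, a count that was 30 under quantile normalization and 102 under median-ratio scaling. AT3G09680, of the S23 family, fell in both lineages and had 24.3, 39 and 42.7 FPKM in the embryo proper and 0, 0.805 and 22.8 FPKM in the suspensor, against 202, 352 and 512 FPKM in the apical cell and 114, 324 and 409 FPKM in the basal cell. AT5G40040, an acidic stalk protein of the large subunit, had 2.83, 16.2 and 28.4 FPKM in the embryo proper and 51.9, 104 and 166 FPKM in the suspensor, against 496, 596 and 658 FPKM in the apical cell and 894, 1104 and 1295 FPKM in the basal cell. AT5G09500 was not on this list, which was drawn by subunit names in RefSeq.

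Cell cycle genes also differed between the average and the shared calls. Of 62 tested genes of the cell cycle and DNA replication, 5 rose and 29 fell in the average, against 17.2 and 24.5% of all tested genes. In the apical lineage 4 fell and in the basal lineage 30 fell, against 11.7 and 26.0% of all tested genes. TSO2, a subunit of ribonucleotide reductase, was the 1 that fell in both (1.61%, against 3.89%). TSO2 had 74, 114 and 148 FPKM in the embryo proper and 6.41, 18.6 and 66.4 FPKM in the suspensor, against 134, 214 and 485 FPKM in the apical cell and 85.1, 116 and 231 FPKM in the basal cell, and its shared call was lost in 21 of 36 alternative fits.

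**Figure D5:**
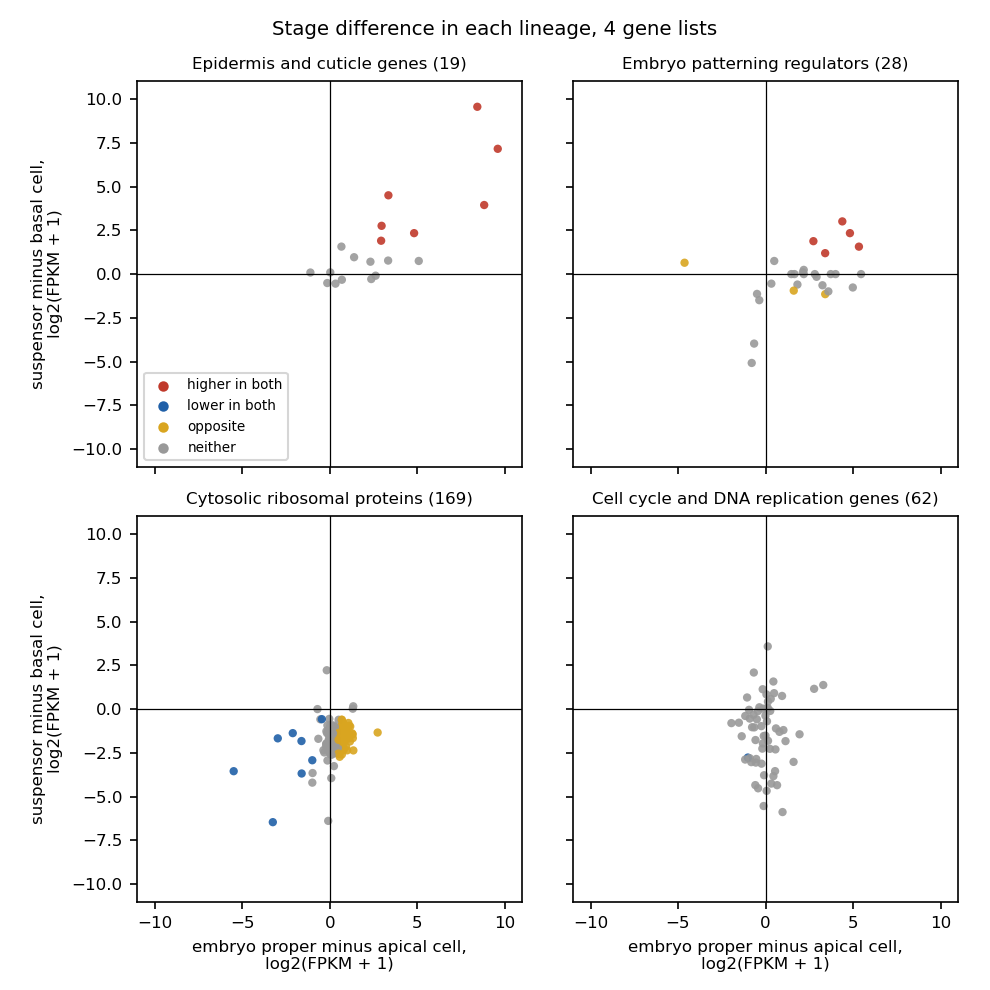
Stage difference of the tested members of 4 lists (epidermis and cuticle, patterning, ribosomal proteins, cell cycle) in the apical lineage (horizontal axis, embryo proper minus apical cell) and the basal lineage (vertical axis, suspensor minus basal cell), in log2(FPKM + 1). Of the ribosomal protein genes, 164 were called lower in the basal lineage, and 7 epidermis genes were called higher in both.

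Of 7 tested egg cell and zygote genes, 0 rose and 4 fell in the average, against 17.2 and 24.5% of all tested genes. In both lineages 2 fell (28.6%, against 3.89%). EC1.5, of the family of peptides secreted by the egg cell at fertilization, had 1.17, 2.28 and 6.33 FPKM in the embryo proper and 0, 0.775 and 19.6 FPKM in the suspensor, against 25.9, 38.9 and 58.3 FPKM in the apical cell and 35, 71.4 and 198 FPKM in the basal cell, without overlap. RKD2, an RWP-RK transcription factor of the egg cell, had 0, 2.42 and 5.72 FPKM in the embryo proper and 0, 0.025 and 0.29 FPKM in the suspensor, against 8.35, 32.5 and 56.2 FPKM in the apical cell and 0.05, 2.90 and 24 FPKM in the basal cell, and it overlapped in the basal lineage.

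Of 36 genes of DNA methylation and small RNAs, 10 rose and 11 fell in the average, against 17.2 and 24.5% of all tested genes. AGO7 and CMT2 rose in both lineages (5.56%, against 3.03%), and VIM2, VIM3, AGO5, AGO8 and DRM1 fell in both (13.9%, against 3.89%). VIM2, which binds methylated DNA and takes part in keeping CG methylation, had 17.2, 18.9 and 26.3 FPKM in the embryo proper and 0, 6.42 and 14 FPKM in the suspensor, against 102, 122 and 139.8 FPKM in the apical cell and 46.9, 100.5 and 134 FPKM in the basal cell. VIM3, its paralogue, had medians of 35.8 FPKM in the embryo proper and 8.08 in the suspensor, against 133 in the apical cell and 62.9 in the basal cell. AGO5, an Argonaute known from reproductive cells, had 26.7, 40.5 and 60.3 FPKM in the embryo proper and 0, 0.045 and 1.86 FPKM in the suspensor, against 105, 161 and 190.0 FPKM in the apical cell and 5.23, 16.8 and 23.2 FPKM in the basal cell. VIM2, VIM3 and AGO5 were each apart in both lineages, but every embryo proper library held more AGO5 than any basal cell library.

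Sugar exporters of the SWEET family moved both ways. Of 8 tested, 2 rose in both lineages (25%, against 3.03% of all tested genes) and 1 fell (12.5%, against 3.89%). SWEET8 fell and had 0.59, 1.19 and 15.1 FPKM in the embryo proper and 107, 142 and 232 FPKM in the suspensor, against 307, 445 and 628 FPKM in the apical cell and 2082, 3217 and 3608 FPKM in the basal cell. SWEET9 rose and had 2.86, 13 and 61.8 FPKM in the embryo proper and 15.5, 31.6 and 45.5 FPKM in the suspensor, against 0, 0 and 0.13 FPKM in the apical cell and 0 in all 6 libraries in the basal cell. Neither overlapped between stages. SWEET5, the third shared gene of 8 tested, had 0.51, 1.89 and 5.15 FPKM in the embryo proper and 149.96, 199 and 224 FPKM in the suspensor, against 0, 0.015 and 1.32 FPKM in the apical cell and 0 in all 6 libraries in the basal cell, and its rise was larger in the basal lineage by 6.30 ± 0.51 log2 (limma adjusted p = 2.2e-09). The shared call of SWEET5 was lost with a pseudocount of 5 and under quantile normalization.

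Of 19 touch, wounding and early stress genes 13 rose in the average, and 16 rose in the basal and 2 in the apical lineage. Over all tested genes 17.2% rose in the average, 18.9% in the basal and 10.2% in the apical lineage. JAZ1 and SZF1 rose in both lineages (10.5%, against 3.03% of all tested genes), with suspensor medians of 134 and 89 FPKM. JAZ1 had 3.22 to 39.8 FPKM in the embryo proper and 0 to 9.21 in the apical cell, with overlap. Its highest embryo proper library was replicate 3 with a Col mother, and the others reached at most 8.68 FPKM. SZF1 had 6.52 to 34.8 FPKM in the embryo proper and 0.06 to 4.91 in the apical cell, without overlap. RNS1, a ribonuclease on the lists of phosphate starvation and of developmental cell death, fell in both lineages and had medians of 1.84 FPKM in the embryo proper and 97.3 in the suspensor, against 389 in the apical cell and 315 in the basal cell. It overlapped between the suspensor and the basal cell. It was 1 of 17 tested phosphate starvation genes (5.88%, against 3.89% of all tested genes) and 1 of 2 tested cell death genes. Of 35 proteasome subunits, RPT1A and PBB2 rose in both lineages (5.71%, against 3.03% of all tested genes). Their rise in the average was 0.58 ± 0.11 log2 and 0.56 ± 0.11 log2. The median of the proteasome list was 0.08 log2 as fitted and -0.01 log2 after rescaling to TPM, so its direction depended on the scaling. NAS2, F3H and HTA12 rose in both lineages on the lists of iron, seed coat and histone genes, by 3.05 ± 0.34 log2, 2.07 ± 0.29 log2 and 3.13 ± 0.36 log2 in the average. Each was the 1 risen shared gene of its list (11.1, 9.09 and 2.86%, against 3.03% of all tested genes). AT4G40030, the 1 histone gene that fell in both lineages (2.86%, against 3.89%), fell by 0.81 log2 in the average.

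No shared gene was called by limma on the lists of chlorophyll, gibberellin, copper, heat shock, cellulose synthase, aquaporin and endosperm genes. At an unadjusted p under 0.05 in both lineages, 2 chlorophyll, 1 gibberellin and 1 cellulose synthase gene moved the same way, and 0 did on the other 4 lists. Other scalings gave shared calls on 3 lists, namely 1 higher chlorophyll gene with quantile normalization and with median-ratio scaling, 1 lower gibberellin gene after rescaling to TPM and with quantile normalization, and 1 lower cellulose synthase gene after rescaling to TPM. Of 18 heat shock genes, 6 fell in the apical lineage and 5 rose in the basal lineage, against 11.7% and 18.9% of all tested genes. Of the 18, 0 were called in the average, also at an unadjusted p under 0.05. The 2 most abundant genes of these lists, other than the endosperm list, were as follows. Of the copper genes, COPT2, a copper importer, had medians of 0.04 FPKM in the embryo proper and 262 in the suspensor, against 437 in the apical cell and 101 in the basal cell, and CSD2, a copper/zinc superoxide dismutase, had medians of 235 FPKM in the embryo proper and 108 in the suspensor, against 75.8 in the apical cell and 196 in the basal cell. Both were called in opposite directions, COPT2 lower and CSD2 higher in the embryo proper than in the apical cell. The aquaporin PIP2;7 was also called in opposite directions, with medians of 532 FPKM in the embryo proper and 22 in the suspensor, against 55.2 in the apical cell and 40.3 in the basal cell, and PIP1;3, another aquaporin, was called in the apical lineage alone (3.60 ± 0.62 log2). CESA1 and CESA3, subunits of cellulose synthase, fell in the average by 0.83 and 0.91 log2 and were called in the apical lineage alone. GSA1 and GSA2, of chlorophyll synthesis, fell in the average by 0.66 and 0.79 log2 and were called in the basal lineage alone. Of the gibberellin enzymes, KO rose in the apical lineage (0.68 ± 0.23 log2) and KS in the basal lineage (2.62 ± 0.42 log2). The small heat shock genes HSP17.4 and HSP17.6A fell in the apical lineage alone, HSP17.4 with medians of 154 FPKM in the embryo proper and 1208 in the suspensor, against 738 in the apical cell and 929 in the basal cell, and HSP17.6A with medians of 246 FPKM in the embryo proper and 1376 in the suspensor, against 1038 in the apical cell and 692 in the basal cell. For each of these genes called in 1 lineage alone, the limma adjusted p of the lineage difference was 0.00022 for PIP1;3, 0.068 for CESA1, 0.21 for CESA3, 0.34 for GSA1, 0.43 for GSA2, 0.24 for KO, 0.00029 for KS, 0.025 for HSP17.4 and 0.0093 for HSP17.6A.

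Among shared genes without overlap between stages, the rise differed most between lineages for AT3G05600, an alpha/beta-hydrolase gene. It had 117, 154 and 227 FPKM in the embryo proper and 647, 794 and 1218 FPKM in the suspensor, against 6.97, 63.9 and 95.2 FPKM in the apical cell and 0, 3.46 and 30.8 FPKM in the basal cell. Its rise was 1.78 ± 0.61 log2 in the apical and 7.72 ± 0.61 log2 in the basal lineage, and the call was lost in 14 of 36 alternative fits. AT1G23000, annotated to heavy metal transport, rose by 1.62 ± 0.40 log2 in the apical and 5.88 ± 0.40 log2 in the basal lineage. AT1G67820, a protein phosphatase gene, changed by -1.11 ± 0.34 log2 in the apical and -5.65 ± 0.34 log2 in the basal lineage, and AT1G33970, a nucleoside triphosphatase-like gene, by -5.69 ± 0.28 log2 in the apical and -1.42 ± 0.28 log2 in the basal lineage.

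Besides the copper and aquaporin genes above and WOX8, the 4 genes in each direction with the largest opposite differences, among those averaging at least 10 FPKM in 1 cell type, were as follows. CEP1, a cysteine protease of dying cells, had 0.23, 0.53 and 0.88 FPKM in the embryo proper and 383, 540.0 and 879 FPKM in the suspensor, against 10.5, 20.7 and 23.9 FPKM in the apical cell and 7.78, 12.1 and 19.6 FPKM in the basal cell, and its average was 0.87 ± 0.18 log2. GAD4, a glutamate decarboxylase, AT1G65970, a thioredoxin-dependent peroxidase, and AT1G20500 were also higher in the suspensor and lower in the embryo proper, with suspensor medians of 109.8, 791 and 27.2 FPKM and embryo proper medians of 0.195, 0.385 and 0 FPKM. AT5G66800, a kinase regulator-like gene, went the other way and had 48.3, 68.5 and 119 FPKM in the embryo proper and 0.28, 4.11 and 16.7 FPKM in the suspensor, against 0.25, 0.945 and 11.6 FPKM in the apical cell and 84.2, 118 and 143 FPKM in the basal cell. LTP3, a lipid transfer protein, had medians of 9342 FPKM in the embryo proper and 128 in the suspensor, against 836 in the apical cell and 1039.7 in the basal cell. IQD16, which binds calmodulin, and the non-coding AT3G61118 likewise changed by 3.03 and 2.98 log2 in the apical and by -4.26 and -4.87 log2 in the basal lineage. Of these 8 genes CEP1 was called in the average, as were COPT2, CSD2 and WOX8 outside them.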

How the data were processed

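Gene expression was measured in 24 libraries, 3 in each of 8 groups of cell type and mother given by the labels. The FPKM values, 1 per locus and library, were made by the authors; the submitters' processing notes name TopHat2 2.1.1, RSEM and TAIR10. Per the labels' protocols, mRNA was captured on beads and amplified with a SMART-Seq kit; 20 libraries name Nextera XT and 4 allow NEBNext. Strand and depth are not given in the sources used here, so reads of overlapping genes cannot be told apart and no counting error is given.

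Of 32399 loci, 31912 matched RefSeq's TAIR10.1 table, the source of names, coordinates and upstream bases. Genes reaching 1 FPKM in 3 or more libraries, 18206 in number, were fitted as log2(FPKM + 1) with limma 3.58.1 (R 4.3.3), 8 group means and a mean-variance trend, and p-values were adjusted by Benjamini-Hochberg over all of them. The scripts were tested on simulated data, where the shared call recovered 24.2% of changes of 1 log2 and 84.4% of changes of 2 log2. In the simulation few genes changed, by the same amount in both lineages, and none of them had a low mean. In the data 41.7% of genes were called in the average, so these rates do not give the sensitivity there.

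Leading genes averaged at least 10 FPKM in both cell types of the higher stage. Each of 26 lists gave up to 4 shared genes by size of the average difference, or the 2 most abundant where none was shared. Up to 4 genes in each direction were taken from those called in opposite directions, and 2 in each direction by lineage difference. Other shared list members are named without values. Members and lists were chosen with earlier results of these data known, and 7 loci were dropped from lists on their annotation. Alternatives covered pseudocount, filter, scaling, library weights, trend, kit wording, replicate block, each cross, a minimum of 1 log2 and each library left out.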

Additional observations from a re-analysis of the deposited data

Results flagged for a closer look

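Among the leading genes, the genes with the largest opposite changes and the shared genes picked for unlike size, the stage difference was called as unlike between the lineages for 16, given here as the basal lineage's log2 difference minus the apical lineage's. ABCG15 (1.28), AT3G05600 (5.94) and AT1G23000 (4.27) rose more in the basal lineage, and PDF1 (-2.44) rose less there. AT4G26485 (2.32), AT5G53670 (1.40) and AT1G33970 (4.27) fell less in the basal lineage, and AT1G67820 (-4.54) fell more there. Among genes called in opposite directions, the value was 9.12 for CEP1, 7.95 for AT1G65970, 6.94 for GAD4 and 6.73 for AT1G20500. It was -9.50 for AT5G66800, -7.85 for AT3G61118, -7.30 for IQD16 and -6.27 for LTP3. Apart from the leading genes PDF1, ABCG15, AT4G26485 and AT5G53670, these genes were picked for this contrast. Genes named from the lists, such as PLT1, FUS3, SWEET5 and COPT2, also had called lineage differences and are not repeated here.

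For AT1G32583 the stage difference was larger with a Col mother than with a Ler mother, by 2.23 log2. All 3 basal cell libraries with a Col mother listed it at 0, while the 3 with a Ler mother were above 0.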

How the results depend on the processing

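Leaving out 1 library at a time gave 7071 to 7936 genes called in the average, 1063 to 1400 shared, 656 to 873 opposite, 3321 to 4382 in the apical and 7513 to 8271 in the basal lineage, 5913 to 6867 for the lineage by stage difference and 116 to 777 for the difference between crosses. The last was 116 without replicate 2 of the embryo proper with a Ler mother and 777 without replicate 3 of the suspensor with a Ler mother, so the count of 272 rests on single libraries. Between 1057 and 1195 of the 1261 shared genes kept the call in those fits, and 1161 did with the kit wording as a covariate. Fewer kept it without the 4 libraries of the other kit wording, a fit with 1 library left for the basal cell with a Ler mother. Within 1 cross, 671 genes were shared with a Col mother and 643 with a Ler mother. Library weights called 6873 genes in the apical and 7345 in the basal lineage, 1875 as shared and 618 between crosses. In the average, the split was 2872 higher and 5036 lower after rescaling to TPM and 3744 and 3623 with median-ratio scaling, and the shared split after rescaling to TPM was 497 and 904. Of the 35 proteasome genes, 16 were called in the average with median-ratio scaling, against 7 as fitted. Over all tested genes 7367 were called with median-ratio scaling, against 7593 as fitted.

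With the replicate number as a block (replicate block), 1261 genes were shared and 7559 called in the average. Libraries with 1 number in different groups correlated at a median of 0.0047 over 84 pairs (-0.178 to 0.303). Most of these pairs differ in mother or stage and cannot come from the same embryos. Whether the numbers pair the cell types of 1 cross and stage was not tested. The call of a shared change held in all 36 alternatives for the 24 leading genes and for 55 of 72 named shared genes, and for 0 of 98 named genes was a called average reversed. The leading genes were picked for size and non-overlap in the same libraries, so their stability follows in part from that choice. The averages of AT5G66800, AT1G65970, GAD4 and AT1G20500, which were not called, took either sign (for GAD4 -0.55 to 0.63 log2). Calls were lost in 22 alternatives for PSBR, 21 for TSO2, 14 for AT3G05600, 12 each for PDH-E1-beta and AT4G40030, 5 for RBCS1A and 4 each for JAZ1 and EXPA21. AT1G67820, EXPA10 and SWEET5 lost 2 each, and AT1G23000, RKD2, RPT1A, AGO8, IAA19 and F3H 1 each. Leaving out 1 library ended the call of PSBR in 17 of 24 fits, TSO2 in 15, AT3G05600 in 11 and PDH-E1-beta and AT4G40030 in 8 each, where the larger of the lineages' limma adjusted p reached 0.1, 0.14, 0.13, 0.13 and 0.12. It reached 0.061 for RBCS1A, whose call was lost without basal cell libraries (Ler mother replicate 1, Col mother replicate 2 or 3). It reached 0.071 for JAZ1, lost without apical cell replicate 1 with a Col mother or embryo proper replicate 3 with either mother. It reached 0.066 for EXPA21, lost without replicate 2 or 3 of the apical cell or replicate 1 of the embryo proper, all with a Col mother, and 0.054 for AT1G67820, lost without replicate 1 of the apical cell with a Ler mother. In these cases the cause was not tested.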

Other observations

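A pair of type-A response regulators, which dampen cytokinin signalling, moved in opposite directions in both lineages. They were chosen after their values were seen. ARR7 rose and had 5.24, 25.5 and 54.8 FPKM in the embryo proper and 25.7, 28.9 and 48.8 FPKM in the suspensor, against 0, 0 and 0.56 FPKM in the apical cell and 0 in all 6 libraries in the basal cell. ARR15 fell and had 2.32, 10.5 and 14.5 FPKM in the embryo proper and 0, 8.48 and 33 FPKM in the suspensor, against 160.5, 171 and 210.0 FPKM in the apical cell and 56.8, 126 and 186 FPKM in the basal cell. Neither overlapped between stages, and the differences were 4.71 ± 0.28 log2 for ARR7 and -4.25 ± 0.40 log2 for ARR15.

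Genes annotated as F-box proteins, which pick targets for ubiquitin ligases, were 1 of the 552 shared genes that rose and 34 of the 709 that fell, 0.181 and 4.80%, where they are 1.34% of tested genes. Genes annotated as TRAF-like were 0 of those that rose and 12 of those that fell (1.69%), against 0.22% of tested genes. Both annotation terms were picked after the fallen genes had been listed, and members of these families often lie in near-identical copies.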
